A study of Mus musculus with 24 samples.

Results

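MicroRNA levels of the whole mouse eye were set against those of its sclera, the fibrous outer coat, to show which miRNAs are concentrated in that coat and which come from the rest of the eye. The members are the arrays whose titles name whole eye (12) and those whose titles name sclera (6), so 18 of the 24 arrays of the series were compared, with both experimental arms of each tissue averaged. The 6 retina arrays of the series were scaled in the same way and are given as levels beside the comparison. The mice were C57BL/6J, and none of the labels names a mutation or transgene. In every mouse the right eye wore a diffuser from postnatal day 24 for 10 days, which blurs vision and makes the eye grow too long (form-deprivation myopia), and the left eye was the control, so that eyes were collected at an age of 34 days. Whole-eye arrays were titled control (6) or myopia (6), and sclera arrays likewise (3 and 3). In the sclera samples, an array titled control has a source name and phenotype field of the treated eye and the reverse, which leaves the comparison of tissues unaffected because arms were averaged. Of the 15 mice, 6 gave whole eyes and 9 gave sclera and retina. The 12 whole-eye arrays therefore share animals, which the labels do not tie to arrays. The titled arms of sclera, and sclera and retina arrays, may share animals too. The tests treat arrays as independent, so p-values may be too small. The labels also do not say whether a sclera array held the RNA of 1 mouse or of a pool, so the p-values cover sample-to-sample scatter that may be no more than technical.

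A miRNA is a short RNA that guides a silencing complex to messenger RNAs, and its seed, the bases near its 5′ end, sets most of the targets, so that miRNAs with 1 seed form a family. The sclera is built by fibroblasts that lay down and remodel collagen, and it thins and weakens as a myopic eye elongates. A whole eye holds the sclera itself and also the neural retina, pigment epithelium, choroid, ciliary body, lens and cornea. A whole-eye level is therefore a blend over these tissues, and in such bulk RNA fewer cells of a type and less RNA per cell cannot be told apart.

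The mature sequences below are those of miRNAs with large tissue differences, printed 5′ to 3′ with bases 2 to 8, the seed, in capitals. They come from RefSeq (GRCm38.p6), where 270 of the 360 tested miRNAs were matched by name. The first set was higher in whole eye. Here miR-7a-5p and miR-7b-5p share a seed, while the seeds of miR-182-5p, miR-96-5p and miR-183-5p, which come from 1 genomic cluster, differ.
miR-129-5p: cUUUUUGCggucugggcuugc
miR-551b-3p: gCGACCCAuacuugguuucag
miR-7a-5p: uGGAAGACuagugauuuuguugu
miR-7b-5p: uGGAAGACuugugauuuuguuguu
miR-9-5p: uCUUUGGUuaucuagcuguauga
miR-182-5p: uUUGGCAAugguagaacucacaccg
miR-96-5p: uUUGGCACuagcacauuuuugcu
miR-183-5p: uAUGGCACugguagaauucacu
miR-499-5p: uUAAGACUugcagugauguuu

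The second set was higher in sclera. No seed occurs more than once in it.
miR-214-3p: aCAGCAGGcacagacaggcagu
miR-199a-5p: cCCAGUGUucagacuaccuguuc
miR-199a-3p: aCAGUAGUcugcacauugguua
miR-10b-5p: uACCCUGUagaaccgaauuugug
miR-542-5p: cUCGGGGAucaucaugucacga
miR-223-3p: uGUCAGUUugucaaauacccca
miR-140-3p: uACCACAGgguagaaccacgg
miR-455-3p: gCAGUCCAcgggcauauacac

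A level is the log2 of a miRNA's background-subtracted signal, summed over its probes and scaled so that 0 is the 75th percentile of the array. Signals below the dimmest detectable ones were set to a floor of -7.13. Of 696 miRNAs on the array, 360 were detected on at least 2/3 of the arrays of 1 or more of the 4 groups and were tested, and 245 were detected on all 18 arrays. Whole-eye arrays detected 333.8 ± 15.7 miRNAs (SD, n = 12) and sclera arrays 300.7 ± 17.1 (SD, n = 6) (two-sided exact permutation p = 0.00172, with whole-eye arrays that share animals counted as independent). Over those 245 miRNAs the 75th percentile of the unscaled signal was 1065 to 1621 on whole-eye arrays and 417 to 1239 on sclera arrays. Sclera titled control replicate 3 was the dimmest. Control spots in the bright corners were also brighter on whole-eye arrays (137 to 487 against 104 to 163; exact permutation p = 0.00517), and the part of this difference in the tissue differences was not tested. Arrays of the same tissue correlated at r = 0.935 to 0.997 within whole eye and 0.931 to 0.993 within sclera, and arrays of different tissues at 0.772 to 0.888. Whole eye and sclera occupied different positions on each slide, so position and tissue cannot be told apart.

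The 2 tissues differed for most miRNAs. In the limma fit with Benjamini-Hochberg adjustment at 0.05, 165 of 360 tested miRNAs were higher in whole eye (45.8%) and 121 were higher in sclera (33.6%), so that 79.4% were called in all. The median difference, whole eye minus sclera, was 0.21 on the log2 scale over all tested miRNAs, 1.06 over those higher in whole eye and -1.09 over those higher in sclera. For 109 miRNAs every whole-eye array lay above every sclera array (30.3%), and for 77 every sclera array lay above every whole-eye array (21.4%). Differences of at least 4-fold were found for 40 miRNAs higher in whole eye and 20 higher in sclera. With the titled control arrays alone, where the whole-eye arrays are all of 1 eye side, 121 were higher in whole eye and 104 in sclera, and with the titled myopia arrays alone 167 and 104. Each of the 3 slides held both tissues, and within slides 136, 179 and 139 miRNAs were higher in whole eye and 114, 98 and 124 in sclera. The split moved with the zero point: whole eye had 57.7% of the calls in the main scaling, 46.3% when all miRNAs set the scale, 16.6% after normexp background correction and 75.7% in the authors' value table. Over these settings the median difference of all miRNAs was 0.21, -0.06, -0.81 and 0.50. Normexp adds an offset of 50 to every signal. Under it the median difference of all miRNAs moved toward sclera, from 0.21 to -0.81, so differences were not only made smaller. The cause of this shift was not tested. Differences below are relative to the main scaling.

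**Figure D1:**
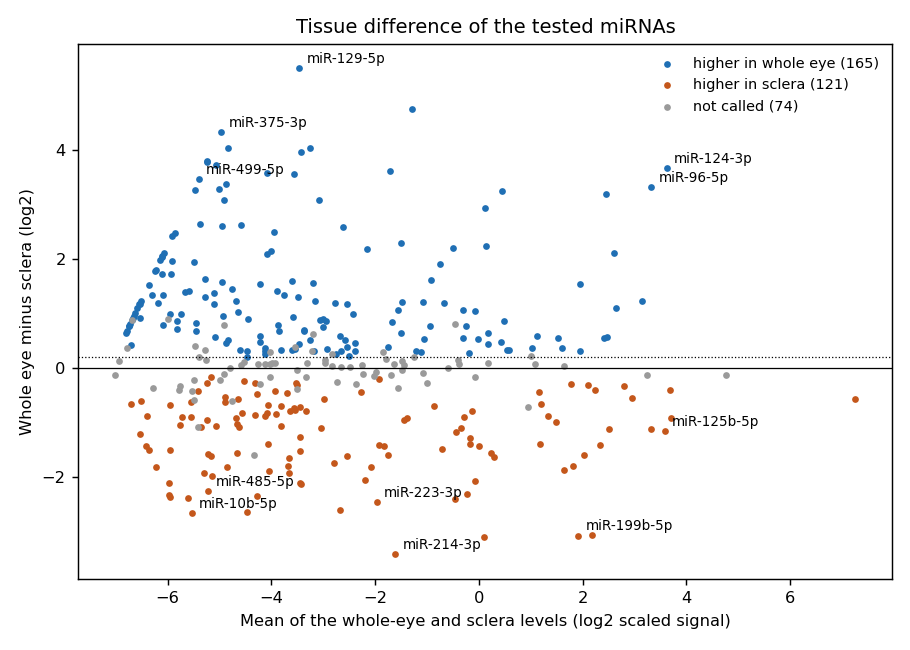
Each point is 1 of the 360 tested miRNAs, with the mean of its whole-eye and sclera levels (log2 scaled signal) on the x axis and the difference, whole eye minus sclera (log2), on the y axis; blue, higher in whole eye (165), orange, higher in sclera (121), grey, not past the threshold, dotted line, the median of 0.21. The differences reach 5.49 for miR-129-5p and -3.41 for miR-214-3p.

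The presence calls were one-sided among the 696 miRNAs on the array, but the counts of the directions are not alike. A whole eye holds the sclera itself, the reverse count needs absence on 12 arrays instead of 6, and sclera arrays detected fewer miRNAs. On every whole-eye array and on no sclera array 14 miRNAs were detected, namely miR-7b-5p, miR-137-3p, miR-138-5p, miR-290-5p, miR-323-3p, miR-325-3p, miR-344b-3p, miR-346-5p, miR-375-3p, miR-384-5p, miR-499-5p, miR-551b-3p, miR-873-5p and miR-3099-3p. All of these but miR-290-5p, detected on 3, were also detected on all 6 retina arrays. The reverse held for 1 miRNA, miR-675-3p, which is cut from the first exon of the imprinted H19 transcript and was detected on 6 of 6 sclera arrays, 0 of 12 whole-eye arrays and 0 of 6 retina arrays. Its level was -5.79, -5.33 and -4.95 (lowest, median, highest) in sclera, at least 3.08-fold above whole eye (limma adjusted p = 6.55e-12). A fold is given as at least N-fold where the dimmer tissue had no detected array; it is taken against the lowest detectable signal there.

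MiRNAs of nervous tissue were mostly higher in whole eye, and 7 of the 15 largest differences in that direction were theirs. Of 17 tested miRNAs listed as neuronal, 16 were higher in whole eye and 1 was higher in sclera (45.8% and 33.6% of all tested miRNAs), with a median difference of 3.08 against 0.21 over all tested miRNAs. After normexp the list median was 0.66 and that of all miRNAs -0.81. The largest fitted difference was that of miR-129-5p, a brain and retina miRNA, a rank that depends on the floor: with a floor 4 times lower miR-375-3p had 6.32 and miR-129-5p 6.02. The levels of miR-129-5p were -0.86, -0.73 and -0.56 (lowest, median, highest) in whole eye and -7.13, -6.18 and -5.30 in sclera, where 3 of 6 arrays detected it. Whole eye was 45.0-fold higher (5.49 ± 0.24 SE, log2; adjusted p = 1.39e-12), a value that depends on the floor. The levels in retina were 0.61 to 0.86, above every whole-eye array. The other arm of the hairpin, miR-129-2-3p, was detected on all 18 arrays and was 26.8-fold higher in whole eye, with levels of 0.87, 1.09 and 1.32 against -4.63, -3.59 and -3.05.

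MiR-124-3p, the most nervous-system-restricted of vertebrate miRNAs, had levels of 5.38, 5.44 and 5.56 in whole eye, 6.40, 6.43 and 6.56 in retina, and -0.10, 2.25 and 2.62 in sclera. Tissues did not overlap, and whole eye was 12.7-fold above sclera (3.66 ± 0.30 SE; adjusted p = 5.00e-09). The sclera arrays were far apart: titled control replicate 3 stood at -0.10, titled myopia replicate 2 at 1.15, and the remaining 4 between 2.22 and 2.62. MiR-9-5p, which acts in neural progenitors and neurons, stood at -0.01, 0.05 and 0.38 in whole eye and -4.06, -3.50 and -2.89 in sclera, 12.2-fold apart (adjusted p = 5.13e-14). The seed family of miR-7, a regulator of neuroendocrine and photoreceptor genes, was represented by miR-7a-5p, 15.6-fold higher in whole eye, and by miR-7b-5p, at least 11.3-fold higher and detected on no sclera array, though at -0.24 after normexp. MiR-153-3p, also a neuronal miRNA, was 10.4-fold higher, with only 3 of 6 sclera arrays detecting it. MiR-132-3p, which follows neuronal activity, was 8.46-fold and miR-128-3p 4.54-fold higher. The 1 member that went the other way was miR-125b-5p, which mesenchymal cells also carry in abundance. Its levels were 2.89, 3.01 and 3.08 in whole eye and 3.91, 4.04 and 4.89 in sclera, which was 2.23-fold higher without overlap (adjusted p = 9.35e-09).

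Several miRNAs of the same size of difference fell outside the neuronal list. MiR-375-3p, known from pancreatic islets and other secretory cells, had levels of -3.01, -2.85 and -2.54 in whole eye, sat at the floor on all 6 sclera arrays and was at least 17.3-fold higher in whole eye (adjusted p = 2.05e-18), a call lost after normexp (0.049; adjusted p = 0.882). Its standard error of 0.07 carries no sclera spread, because floored values do not vary; the same holds for miR-344b-3p (at least 11.9-fold) and miR-384-5p (at least 11.8-fold). MiR-551b-3p was at least 14.3-fold higher in whole eye, and miR-598-3p was 11.8-fold higher. After normexp 20 of the 30 named miRNAs still passed the test and 24 kept their sign. Those that kept the sign without passing were miR-375-3p, miR-183-3p (0.28), miR-124-5p (0.23; adjusted p = 0.434) and miR-598-3p (0.56; adjusted p = 0.0602). The 6 that turned were miR-551b-3p, miR-344b-3p, miR-384-5p, miR-7b-5p, miR-499-5p and miR-153-3p, at -0.42 to -0.032 where the median of all miRNAs was -0.81. Among the 15 largest differences toward whole eye, the retina median lay above every whole-eye array except for miR-499-5p.

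**Figure D2:**
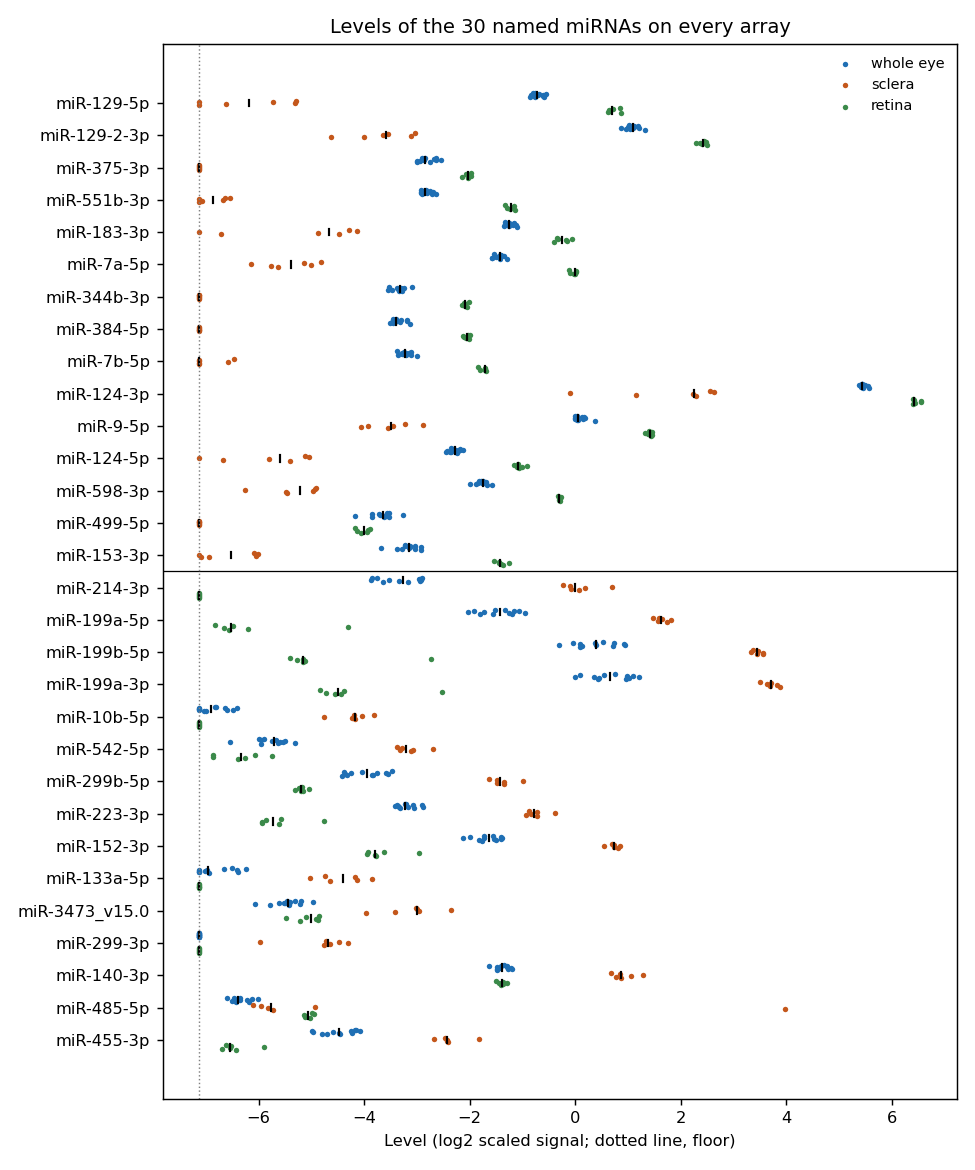
Each point is the level (log2 scaled signal) of a miRNA on 1 array, for the 15 largest differences toward whole eye (above the line) and the 15 toward sclera (below it); blue, whole eye (n = 12), orange, sclera (n = 6), green, retina (n = 6), black ticks, medians, dotted line, the floor of -7.13. Whole eye lies above sclera on every array for the upper 15, and sclera lies above whole eye for 14 of the lower 15, except miR-485-5p. These were chosen for large differences, which favours separation. Of all 360 tested miRNAs, 30.3% separated with whole eye above and 21.4% with sclera above. Under normexp 6 dim miRNAs of the upper 15 change sign.

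The sensory cluster, transcribed in photoreceptors and other sensory cells from chr6:30115933-30119733 (mm9, the build of the files), followed. All 4 tested members were higher in whole eye (45.8% of all tested miRNAs were), with a median difference of 3.28. MiR-183-3p was 16.3-fold higher, with levels of -1.35, -1.25 and -1.11 in whole eye and -7.13, -4.67 and -4.13 in sclera, but this call was lost after normexp (0.28; adjusted p = 0.355). MiR-96-5p (9.98-fold), miR-182-5p (9.45-fold) and miR-183-5p (9.12-fold) were detected on every array of both tissues. The summed level of the 4 members was 5.62 to 5.90 in whole eye and 6.67 to 7.11 in retina. In sclera it ranged from 0.72 on titled control replicate 3 and 1.79 on titled myopia replicate 2 to 3.28 on titled control replicate 2, a range of 5.91-fold. MiRNAs of the sensory cluster were thus detected in the sclera RNA at a level that changed between arrays. Which cells they came from, and their part in the differences toward whole eye, was not tested.

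Pigmented and lining epithelia gave smaller differences. MiR-204-5p, from an intron of Trpm3 and needed for pigment epithelium and lens, was 2.34-fold higher in whole eye (3.58, 3.75 and 3.92 against 1.91, 2.58 and 3.37; adjusted p = 5.37e-08). MiR-211-5p, from an intron of the melanocyte gene Trpm1, was 2.16-fold higher (3.05, 3.18 and 3.41 against 1.67, 2.09 and 2.65). Whole-eye and sclera arrays did not overlap for either miRNA. For the pair, the highest sclera array was titled control replicate 3, at a summed level of 4.06, which was also the lowest array for the sensory cluster.

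Among 5 tested cornea and lens miRNAs, 3 were higher in whole eye (45.8% of all tested miRNAs were) and 2 did not pass the test, with a median of 2.10 (0.59 after normexp). MiR-184-3p, the main miRNA of corneal and lens epithelium, had levels of 3.11, 3.65 and 4.03 in whole eye, -0.02, 1.55 and 2.92 in sclera and -3.47, -0.84 and 2.24 in retina. It was 4.29-fold above sclera (2.10 ± 0.32 SE; adjusted p = 1.25e-05). MiR-31-5p, an epithelial miRNA of the cornea, stood at -0.74, -0.32 and -0.04 in whole eye and -2.94, -2.67 and -2.38 in sclera, 4.91-fold lower (adjusted p = 4.24e-13). MiR-205-5p, typical of stratified epithelium, overlapped between tissues (-0.82, -0.12 and 0.56 against -2.86, -0.65 and 0.43) and had a difference of 0.82 ± 0.37 SE (adjusted p = 0.0505). None of the 5 tested miR-200 family members, which keep cells epithelial, passed the test (median 0.30, between -0.25 for miR-429-3p and 0.63). For miR-200c-3p the difference was 0.31 ± 0.35 SE, and it turned to -0.13 without sclera titled myopia replicate 1.

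The sclera arrays differed widely in these epithelial miRNAs. The summed level of the cornea and lens list was 3.22 on titled control replicate 1 and 0.39 on titled myopia replicate 1, a range of 7.08-fold. The miR-200 list had its highest and lowest levels on the same 2 arrays (0.68 and -2.08, a range of 6.76-fold). On these 6 arrays the summed fibroblast list varied by 1.19-fold and the cartilage list by 1.32-fold. How much epithelium the sclera samples held is not given by the labels, and its part in the tissue differences was not tested.

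**Figure D3:**
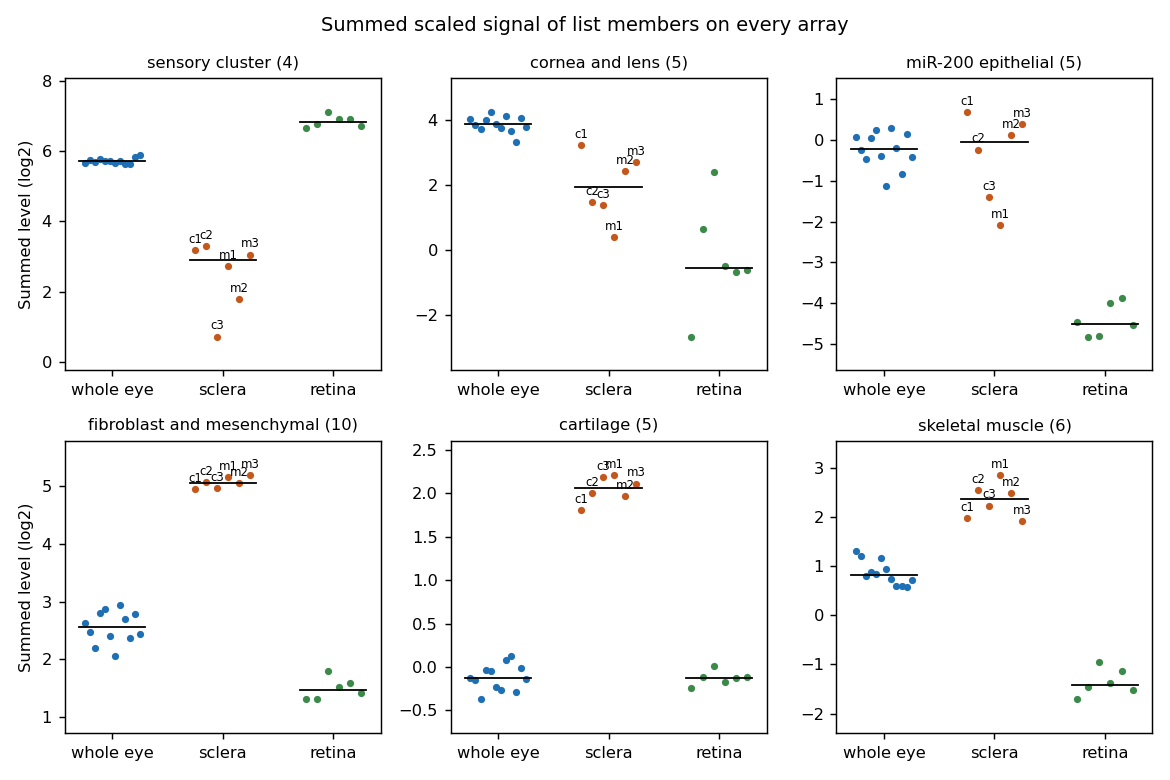
Summed scaled signal (log2) of the tested members of 6 lists on every array of whole eye (n = 12), sclera (n = 6) and retina (n = 6), with medians as lines; sclera points are marked c1 to c3 (titled control) and m1 to m3 (titled myopia). Sclera spans 5.91-fold for the sensory cluster and 7.08-fold for cornea and lens, but 1.19-fold for the fibroblast list. Each sum is led by its brightest members.

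The sclera was marked by fibroblast and mesenchymal miRNAs. All 10 tested members of that list, of 13 on the array, were higher in sclera (33.6% of all tested miRNAs were), with a median difference of -2.52 (-1.55 after normexp). The largest was miR-214-3p, which is transcribed with miR-199a from Dnm3os, an RNA antisense to Dnm3, and is known from fibrosis and skeletal development. Its levels were -0.24, -0.01 and 0.70 in sclera and -3.87, -3.26 and -2.91 in whole eye, and no retina array detected it. Sclera was 10.6-fold higher (-3.41 ± 0.19 SE; adjusted p = 2.68e-11). The miRNAs of the miR-199 family moved with it. MiR-199a-5p had levels of 1.48, 1.62 and 1.81 in sclera against -2.03, -1.43 and -0.95 in whole eye, 8.57-fold apart. MiR-199b-5p, from another Dnm gene intron, was 8.40-fold higher in sclera and reached 3.33, 3.45 and 3.56 there. MiR-199a-3p, whose mature sequence both hairpins give, was 8.26-fold higher. In retina these 3 had medians between -6.52 and -4.50, with 1 retina array, titled control replicate 3, standing above the others (miR-199b-5p at -2.73 against -5.40 to -5.13).

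Other members of the list followed. MiR-10b-5p, located among the Hoxd genes, was detected on 6 of 6 sclera arrays, 2 of 12 whole-eye arrays and 0 of 6 retina arrays, and its levels of -4.77, -4.18 and -3.81 in sclera gave a fitted difference of -2.66 (adjusted p = 8.71e-12), whose size depends on the floor because most whole-eye arrays did not detect it. MiR-152-3p, from an intron of Copz2 and a repressor of the DNA methyltransferase Dnmt1, stood at 0.55, 0.73 and 0.85 in sclera against -2.12, -1.64 and -1.40 in whole eye, 5.24-fold apart. MiR-21-5p, induced in many forms of fibrosis, had the smallest difference, 1.58-fold, with overlapping tissues, and did not pass after normexp (-0.29; adjusted p = 0.0957). MiR-143-3p (1.88-fold) and miR-145-5p (2.09-fold), of contractile smooth muscle and myofibroblasts, were also higher in sclera.

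Cartilage miRNAs were also higher in the coat. All 5 tested members were higher in sclera (33.6% of all tested miRNAs were), with a median of -2.07. MiR-140, from an intron of Wwp2, is the miRNA that defines chondrocytes. MiR-140-3p had levels of 0.67, 0.86 and 1.28 in sclera and -1.64, -1.38 and -1.20 in whole eye, 4.92-fold apart (-2.30 ± 0.09 SE; adjusted p = 2.17e-13), and its retina levels of -1.50 to -1.30 fell within those of whole eye. MiR-140-5p was 4.21-fold higher in sclera. MiR-455, from an intron of the collagen gene Col27a1, gave 4.33-fold for its 3p strand (-2.68, -2.43 and -1.83 against -4.99, -4.47 and -4.08) and 3.50-fold for its 5p strand. Mouse sclera can hold cartilage-like cells, and whether they or fibroblasts carried these miRNAs was not tested.

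The cluster from miR-322 to miR-503 (chrX:50401225-50407512, mm9) restrains the cell cycle and is active in growing mesenchyme. Among its 8 tested miRNAs, 7 were higher in sclera (33.6% of all tested miRNAs were) and miR-351-5p did not pass (median -1.79). MiR-542-5p was detected on 6 of 6 sclera and 11 of 12 whole-eye arrays and was 6.19-fold higher in sclera (-3.38, -3.21 and -2.69 against -6.54, -5.71 and -5.31). MiR-450b-3p and miR-542-3p were detected on 5 of 6 sclera arrays and on no whole-eye array, at least 4.51-fold and 3.96-fold higher. MiR-322-5p, the rodent counterpart of miR-424, was 2.99-fold higher. Both copies of the cluster of miR-23, miR-27 and miR-24, known from endothelium and bone, were also higher in sclera throughout, 4 of 4 tested members each. MiR-23b-3p was 3.64-fold, miR-23a-3p 3.44-fold higher, and miR-24-3p, which both copies encode, differed by -1.58 on the log2 scale.

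**Figure D4:**
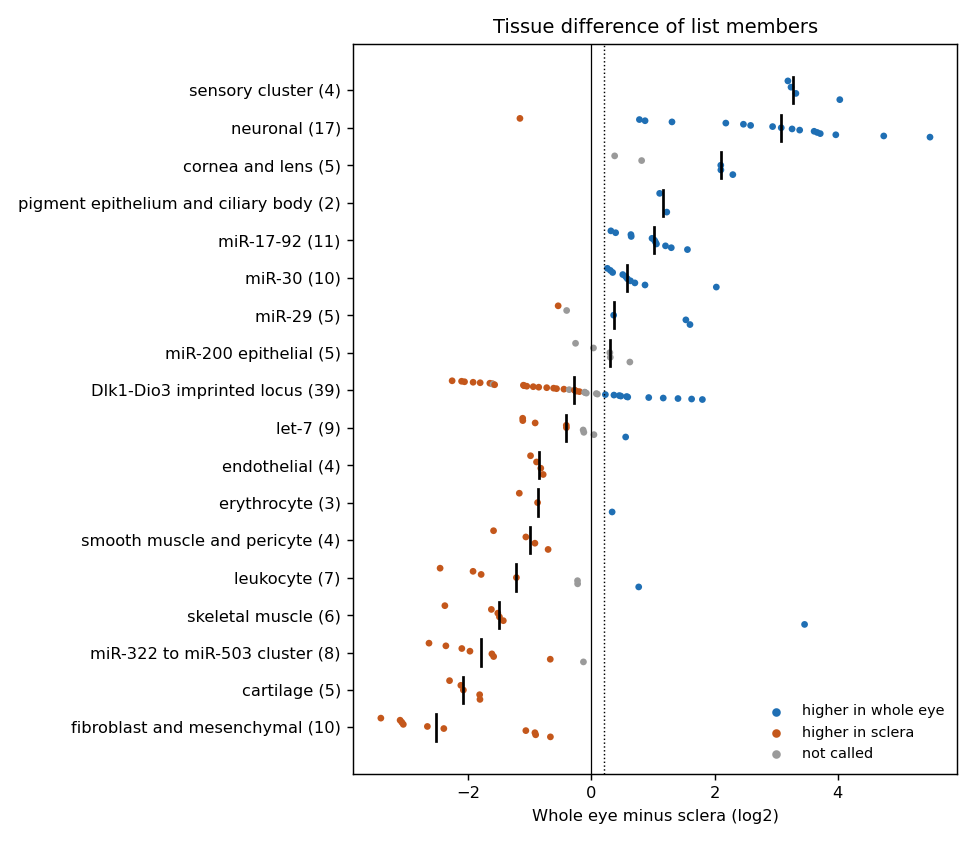
Difference, whole eye minus sclera (log2), of each tested member of 18 lists, with the number tested in parentheses and the list median as a black bar; blue, higher in whole eye, orange, higher in sclera, grey, not past the threshold, dotted line, the median of all 360 tested miRNAs (0.21). The list medians run from 3.28 for the sensory cluster to -2.52 for fibroblast and mesenchymal miRNAs, and miR-499-5p stands apart from the other muscle miRNAs at 3.46; miR-7b-5p, miR-153-3p and miR-499-5p are among the members whose sign turns under normexp.

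Striated muscle miRNAs were split. Of 6 tested, 5 were higher in sclera and 1 in whole eye (33.6% and 45.8% of all tested miRNAs). MiR-1a-3p, abundant in every striated muscle, had levels of 0.00, 0.74 and 1.38 in sclera, -1.01, -0.79 and -0.31 in whole eye and -4.57, -3.87 and -2.64 in retina, and was 2.69-fold higher in sclera (adjusted p = 1.20e-07). MiR-133a-3p was 2.81-fold higher, and miR-133a-5p, detected on only 7 of 12 whole-eye arrays, 5.18-fold. MiR-206-3p, restricted to skeletal muscle, was 2.86-fold higher (-3.17, -2.61 and -2.39 against -4.48, -4.28 and -3.74). The summed level of the list was 1.92 to 2.86 in sclera and 0.57 to 1.31 in whole eye, without overlap. Of the list, miR-208a-3p and miR-208b-3p, of cardiac and slow muscle, were detected on no array of either tissue. MiR-499-5p, which lies in an intron of the slow myosin gene Myh7b, went the other way. It was detected on all 12 whole-eye arrays (-4.17, -3.65 and -3.26) and all 6 retina arrays (-4.17, -4.01 and -3.89) but on no sclera array, at least 9.48-fold below whole eye (-0.42 after normexp). The amount of extraocular muscle in the samples is not given, and its part in the sclera results was not tested.

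Markers of vessels were higher in sclera, and those of blood cells were divided, where 33.6% of all tested miRNAs were higher in sclera and 45.8% in whole eye. All 4 tested endothelial miRNAs were higher there (median -0.85), with miR-126-3p, from an intron of Egfl7, at 1.75, 1.91 and 2.28 in sclera against 0.90, 0.99 and 1.13 in whole eye. All 4 tested smooth muscle and pericyte miRNAs were higher in sclera (median -0.99). Of these, miR-143-3p and miR-145-5p were already counted in the fibroblast and mesenchymal list, and miR-24-3p in the clusters of miR-23, miR-27 and miR-24. Of 7 tested leukocyte miRNAs, 4 were higher in sclera, 1 in whole eye and 2 did not pass (median -1.21). MiR-223-3p, of neutrophils and monocytes, was 5.47-fold higher in sclera (-0.94, -0.78 and -0.38 against -3.42, -3.22 and -2.88; adjusted p = 3.40e-13). MiR-146a-5p, induced by inflammatory signalling, was 3.77-fold, and miR-142-3p, common to all white cells, 3.45-fold higher. MiR-342-3p was 1.71-fold higher in whole eye. MiR-451, made in red cells, was 2.24-fold higher in sclera, while miR-16-5p, found in most tissues, was 1.26-fold higher in whole eye. The summed leukocyte list was 0.50 to 1.16 in sclera and 0.30 to 0.53 in whole eye, and the part of blood left in the samples was not tested.

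The imprinted Dlk1-Dio3 locus on chromosome 12, whose miRNAs are expressed from the maternal chromosome in brain, muscle and mesenchyme, held large differences of both signs. Of 39 tested members of the list, 11 were higher in whole eye, 21 in sclera and 7 did not pass. Of all tested miRNAs, 45.8% were higher in whole eye and 33.6% in sclera. The list median was -0.27, and 0.11 in the authors' value table. By position, tested miRNAs lay in 2 genomic groups, which also hold some that the list lacks, such as miR-299b-5p and miR-299-3p: 10 at chr12:110824030-110833597 and 32 at chr12:110947280-110986124 (mm9). At the near end of the second group, 5 successive miRNAs were higher in sclera by 1.92 to 2.60 on the log2 scale. MiR-379-5p stood at -1.33, -1.16 and -1.06 in sclera against -3.61, -3.25 and -2.90 in whole eye, 4.15-fold apart, and miR-411-5p was 4.29-fold, miR-299b-5p 6.08-fold and miR-299-3p 4.99-fold higher in sclera. After miR-380-3p (-0.26), miR-323-3p was detected on every whole-eye array and no sclera array (at least 3.01-fold higher in whole eye), miR-329-3p, within 1 kb of it, was 3.03-fold higher in sclera, and miR-543-3p was 3.09-fold higher in whole eye. In the first group miR-433-3p was 2.65-fold higher in whole eye, while 7 of the other 9 were higher in sclera. MiR-323-3p, miR-433-3p and miR-543-3p are dim, and after normexp, where the median of all miRNAs was -0.81, their differences were -0.92, -0.90 and -0.78. Within 1 primary locus the tissue difference thus ranged from 1.80 to -2.60, and retina levels of the same miRNAs ranged likewise: those of miR-323-3p (-3.89 to -3.78) lay above whole eye, and those of miR-299b-5p (-5.32 to -5.05) below it.

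**Figure D5:**
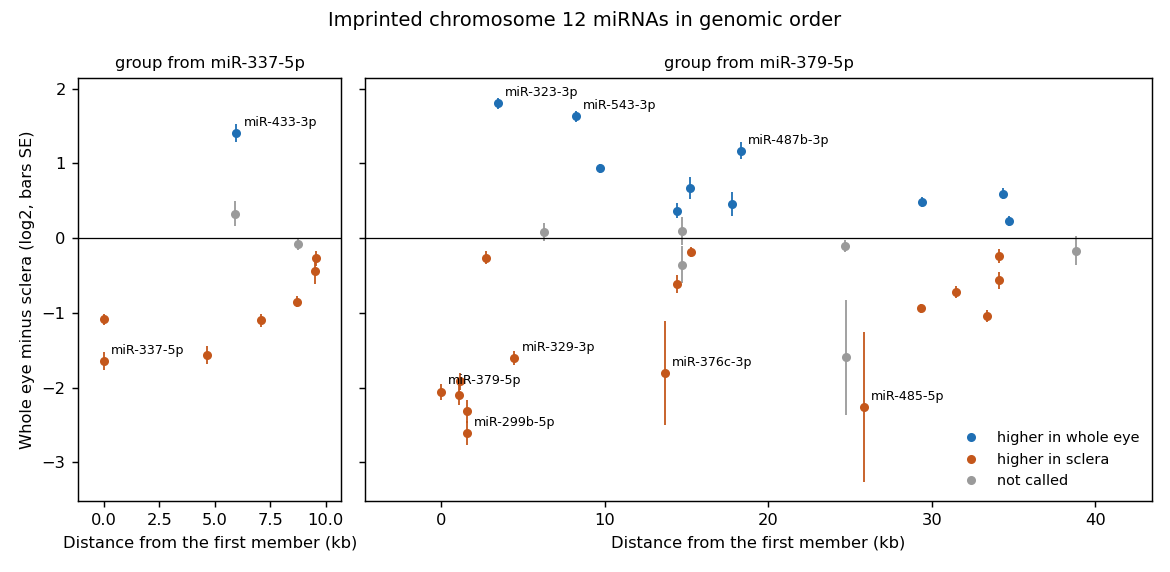
Difference, whole eye minus sclera (log2, bars SE), of the tested miRNAs of the 2 chromosome 12 groups against distance from the first member of each group (kb); blue, higher in whole eye, orange, higher in sclera, grey, not past the threshold. The first 5 miRNAs of the second group lie between -1.92 and -2.60; the long bars are those of miR-376c-3p, miR-382-3p and miR-485-5p, which rest on a bright spot of 1 array, and the blue points of miR-323-3p, miR-433-3p and miR-543-3p turn below 0 under normexp.

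A few sclera values came from a single spot. The 15 largest differences toward sclera include miR-485-5p (-2.26 on the log2 scale; adjusted p = 0.0485), yet its levels there were -6.10, -5.77 and 3.98, and the highest belonged to titled myopia replicate 2 alone. On that array 1 of the 10 spots of a probe read 138193 and the next highest 15.7. Without that array the difference was -0.63, and without the spots that the scanner software called outliers it was -0.59 (adjusted p = 0.000934). MiR-376c-3p had 1 spot at 90390 on sclera titled control replicate 1, where the next read 23.9, and its difference of -1.80 became -0.72 without that array. MiR-382-3p (-1.59, not past the threshold) became -0.35 without titled myopia replicate 2 and then passed. With all outlier spots left out, 166 miRNAs were higher in whole eye and 128 in sclera, and 164 and 120 of the calls above were among them.

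Of all tested miRNAs, 45.8% were higher in whole eye and 33.6% in sclera. Of 14 seeds carried by 3 or more tested miRNAs, 6 had members called in both directions. Of these, 3 are printed below with the seed of miR-384-5p, whose members differ in size, to show how far members agree outside the seed. The other 3 are those of let-7 (5 higher in sclera, 1 in whole eye), of miR-25, miR-92a and miR-92b (2 in whole eye, 1 in sclera; -0.91 to 1.06) and of miR-130 and miR-301 (2 each way; -0.94 to 2.49). The miR-30 family has the seed of miR-384-5p, which no sclera array detected.
miR-384-5p: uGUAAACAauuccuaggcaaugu
miR-30a-5p: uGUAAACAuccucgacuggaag
miR-30c-5p: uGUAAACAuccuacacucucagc
miR-30e-5p: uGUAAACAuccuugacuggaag
The miR-29 family represses collagen genes.
miR-29a-3p: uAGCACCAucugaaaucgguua
miR-29b-3p: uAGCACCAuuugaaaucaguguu
miR-29c-3p: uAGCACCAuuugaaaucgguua
The miR-148 and miR-152 family and the miR-15 family with miR-322 were split as well.
miR-152-3p: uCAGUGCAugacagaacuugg
miR-148a-3p: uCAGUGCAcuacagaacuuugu
miR-148b-3p: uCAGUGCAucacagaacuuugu
miR-15a-5p: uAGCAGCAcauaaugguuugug
miR-16-5p: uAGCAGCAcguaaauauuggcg
miR-322-5p: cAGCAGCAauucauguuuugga

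MiR-29a-3p and miR-29c-3p differ at 1 of 22 bases, outside the seed. MiR-29a-3p was higher in sclera (3.03, 3.22 and 3.37 against 2.42, 2.71 and 2.85; 1.45-fold; adjusted p = 3.22e-06), and miR-29c-3p was higher in whole eye (2.45, 2.77 and 2.92 against 0.48, 1.31 and 1.49; 2.90-fold; adjusted p = 2.68e-09). Neither pair of tissues overlapped, and the sign for miR-29a-3p, at -0.54, turned to 0.067 in the authors' value table, where the median of all miRNAs was 0.50, and the call was lost after normexp (-0.11; adjusted p = 0.551). MiR-29b-3p, encoded at both loci, lay between them at 0.36 ± 0.14 SE. Whether probes for sequences this alike bound each other's target was not tested. MiR-152-3p and miR-148a-3p were 5.24-fold and 2.63-fold higher in sclera, and miR-148b-3p, 2 bases away from miR-148a-3p, 1.35-fold higher in whole eye. MiR-15a-5p and miR-16-5p were 1.40-fold and 1.26-fold higher in whole eye and miR-322-5p 2.99-fold higher in sclera. MiR-384-5p was at least 11.8-fold and miR-30a-5p 1.24-fold higher in whole eye.

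Some other families had all their calls in 1 direction. All 10 tested miR-30 miRNAs were higher in whole eye (median 0.57; 45.8% of all tested miRNAs were), with miR-30b-5p 1.83-fold higher. So were all 11 tested members of the miR-17 cluster and its copies, which drive proliferation (median 1.03), with miR-20a-5p 2.30-fold and miR-92a-3p 2.08-fold higher. The smallest of these differences, 0.26 for miR-30b-3p, was near the median of 0.21 over all tested miRNAs. After normexp the miR-30 median was -0.01, and that of the miR-17 clusters was also within 0.01 of 0. The 4 tested miRNAs of the miR-181 seed were higher in whole eye by a median of 1.70, miR-181a-5p by 4.71-fold. The let-7 family, which marks differentiated cells, was mixed: 5 of 9 were higher in sclera (33.6% of all tested miRNAs were), 1 in whole eye and 3 did not pass. Its median of -0.40 became 0.21 in the authors' value table. Let-7i-5p (2.16-fold) and let-7b-5p (2.16-fold) were higher in sclera and let-7g-5p (1.47-fold) in whole eye, each without overlap. Of 5 tested miR-29 miRNAs, 3 were higher in whole eye, 1 in sclera and 1 did not pass (median 0.36, and -0.11 after normexp).

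Both strands of a hairpin often shared the direction of their tissue difference. Over all 360 tested miRNAs, 45.8% were higher in whole eye and 33.6% in sclera. Among 51 hairpins with both strands tested, 13 had both strands higher in whole eye, 16 both higher in sclera, 4 had opposite calls and 18 had at least 1 strand not past the threshold. Across these hairpins the differences of the strands correlated at r = 0.79, a description over hairpins that share arrays and clusters. The 4 with opposite calls were those of miR-154, miR-290, miR-300 and miR-376b. MiR-154-5p was 1.92-fold higher in sclera (-1.07, -0.97 and -0.94 against -2.12, -1.93 and -1.74), and miR-154-3p was 1.39-fold higher in whole eye (-4.21, -3.95 and -3.83 against -4.64, -4.46 and -4.21), a difference that was -0.78 after normexp. The strands of miR-214 had the same call but not the same distribution: miR-214-3p was detected on no retina array, while miR-214-5p was detected on 5 of 6, with retina levels of -5.91, -1.85 and -1.22 against -5.87, -5.25 and -4.82 in sclera.

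Of the 360 tested miRNAs, 19 had a tissue difference that depended on the titled arm (5.28%; 53 at an unadjusted p under 0.05), and 12 when the sclera arms were named by the phenotype field (3.33%). None of the 30 miRNAs named for their tissue difference was among them. In all 19 the difference, whole eye minus sclera, was more positive in the titled myopia arm. Its mean over arms was above 0 for 17 and below 0 for miR-214-5p and miR-1940. In the same fit the whole-eye arms themselves differed past the threshold for 18 of the 19, and the sclera arms for 0. On no sclera array were 12 of the 19 detected, and for 9 of these both sclera arms sat at the floor, so that the contrast is that of the whole-eye arms alone. MiR-669e-5p is 1 of them, detected on 6 of 12 whole-eye arrays (-7.13, -6.19 and -4.24), with a difference between arms of 2.37 ± 0.24 SE (adjusted p = 1.42e-05). MiR-214-5p, which was detected on every sclera array and 5 of 12 whole-eye arrays, had 1.38 ± 0.24 SE (adjusted p = 0.00178), its difference being -1.59 in the titled control arm and -0.21 in the titled myopia arm. No miRNA passed this limma test after normexp (5 at an unadjusted p under 0.05) or with the retina arrays in the fit (63).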

How the data were processed

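MicroRNAs were measured on 1-colour Agilent mouse miRNA arrays, 1 array per sample. Intensity per spot, background-subtracted, and the detected call per miRNA were deposited by the authors, from Agilent Feature Extraction 11 per the submitters' processing notes. The authors' deposited value table holds log2 values per probe, with scaling between arrays unstated, and served as an alternative. Spots of a probe were averaged, probes of a miRNA summed, and each array scaled to the 75th percentile of 245 miRNAs that every one of the 18 arrays detected. A floor was then set, which 432 of 6480 tested values reached, and log2 taken. The fit over 4 groups used limma 3.58.1 (R 4.3.3, lmFit and eBayes; contrast of tissue means over both arms, two-sided, Benjamini-Hochberg, 0.05), tested on simulated data first. Tables and exact permutation tests used Python 3.11.15. Named miRNAs are the 15 largest differences in each direction past the threshold and detected on every array of the higher tissue, members of lists given as examples, their strand partners, and their neighbours within 10 kb. Members and lists were chosen with earlier results of these data known. Alternatives covered scaling, background, filters, floor, slide, arm and each array left out. Same-numbered whole-eye and sclera arrays deviated together within a titled arm (r = 0.06 to 0.41) but not throughout between opposite arms (r = -0.20 to 0.09). Numbers were not used as pairs in the main fit, and a replicate block was an alternative. Arrays numbered 1 to 3 lay on slides 1 to 3, so number and slide cannot be told apart in these pairs. No spot was saturated and no 2 arrays were identical; the number of arrays limits the precision.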

Additional observations from a re-analysis of the deposited data

Results flagged for a closer look

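In whole eye, 4 values stood apart from the other 5 arrays of their group by a Dixon test at the 95% level, out of 171 groups of named miRNAs tested, fewer than the 1 in 20 that chance gives. MiR-125b-5p was low at 2.89 on titled myopia replicate 4, miR-323-3p at -5.63 and miR-543-3p at -4.60 on titled control replicate 1, and miR-20a-5p at -0.21 on titled control replicate 6. For 3 miRNAs the difference, whole eye minus sclera, was more positive in the titled myopia arm than in the titled control arm by a limma interaction test; for miR-214-5p, higher in sclera, it was thereby smaller in size. The gap was 1.38 for miR-214-5p (adjusted p = 0.00178), 2.37 for miR-669e-5p (adjusted p = 1.42e-05) and 2.55 for miR-672-5p (adjusted p = 0.000688), and the last 2 were detected on no sclera array.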

How the results depend on the processing

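After normexp 48 miRNAs were higher in whole eye and 241 in sclera, and the authors' value table gave 66 in sclera. The arm-dependent miRNAs numbered 0 after normexp, 0 with all 24 arrays and 12 with sclera arms named by phenotype. Leaving out 1 array at a time gave 162 to 176 higher in whole eye, 113 to 123 in sclera and 16 to 24 arm-dependent. Normexp turned miR-551b-3p to -0.032, miR-344b-3p to -0.27, miR-384-5p to -0.28, miR-7b-5p to -0.24, miR-499-5p to -0.42, miR-153-3p to -0.23, miR-200c-3p to -0.63, miR-433-3p to -0.90, miR-323-3p to -0.92, miR-543-3p to -0.78, miR-154-3p to -0.78, miR-669e-5p to -0.92 and miR-672-5p to -0.71; the cause was not tested. The value table turned miR-429-3p to 0.22 and miR-29a-3p to 0.067. Leaving out 1 array at a time, miR-200c-3p ranged from -0.13 (without sclera titled myopia replicate 1) to 0.58, and the negative control spots from -22.2 to 0.94 (without sclera titled myopia replicate 2, where they averaged 117). With the replicate block 162 and 120 were called. Leaving out outlier spots (166 and 128), the 2 whole-eye arrays of high spot variation (166 and 117) and fitting all 24 arrays for the arms were chosen after seeing the data. Of 3621 values for 93 miRNAs over all settings, 3516 kept direction and side of the threshold.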
